A study of Mus musculus with 3 samples.

Results

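The genes of 7 subunits of voltage-gated calcium channels were examined for chromatin occupancy by FOG2, the zinc finger cofactor of GATA factors encoded by Zfpm2, in the embryonic mouse heart. They are the pore-forming subunit genes Cacna1c, Cacna1d, Cacna1g and Cacna1h, the beta subunit gene Cacnb2, and the alpha-2-delta subunit genes Cacna2d1 and Cacna2d2. A FOG2 peak was taken as theirs when no other protein-coding gene body lay nearer to its summit than the member's, within 100 kb. Summits equally near to another gene were kept, and without them the count below is 15. This gave 17 of the 6166 peaks in the deposited list. FOG2 was pulled down on streptavidin from heart ventricles of embryos at embryonic day E12.5, about 20 ventricles in each replicate, and the peaks were called on 2 pulldown libraries pooled, with 1 input library beside them. Per the labels' protocols every ventricle, that of the input included, was Fog2flbio/flbio;Rosa26BirA/BirA, in which the biotin ligase BirA made from the Rosa26 locus can biotinylate the tagged FOG2. The labels' own fields differ from this protocol, since the genotype reads WT and the antibody of the pulldown libraries reads FOG2. The protocol is followed here, and if an antibody was used instead the folds would measure its recovery. No pulldown from animals without the tag, and no sample from atrium or from a FOG2 mutant, was analysed here.

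Voltage-gated calcium channels open when the membrane depolarises. In heart muscle the L-type channel, built on the pore of Cacna1c or Cacna1d, carries the calcium entry that triggers contraction, while T-type channels, built on Cacna1g or Cacna1h, open nearer to the resting potential and are known from pacemaker tissue and embryonic myocardium. The beta subunit binds the pore protein inside the cell and helps to bring it to the membrane, and the alpha-2-delta subunit sits on the outside and raises surface levels and current. FOG2 is known as a cofactor that reaches chromatin through GATA4 and related factors.

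FOG2 summits were found at 5 of the 7 genes, which were chosen with earlier results of these data known. Of all 21631 protein-coding genes 13.6% had one. At least 4 summits were given to 0.892% of all genes and at least 5 to 0.467%. Cacnb2 and Cacna2d1 had 5 summits each, Cacna1c had 4, Cacna1d had 2 and Cacna2d2 had 1. The T-type pore genes Cacna1g and Cacna1h had none. The strongest peak, 40.6-fold over control, lay just past the 3′ end of Cacna2d1, and the next, 19.8-fold, lay inside Cacnb2. Folds are linear ratios of pulldown to control at the summit, as the authors' peak caller wrote them, read here as having 1 added to both sides. Because the libraries were pooled before peaks were called, no value has a spread between replicates and no test between libraries was possible.

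**Figure D1:**
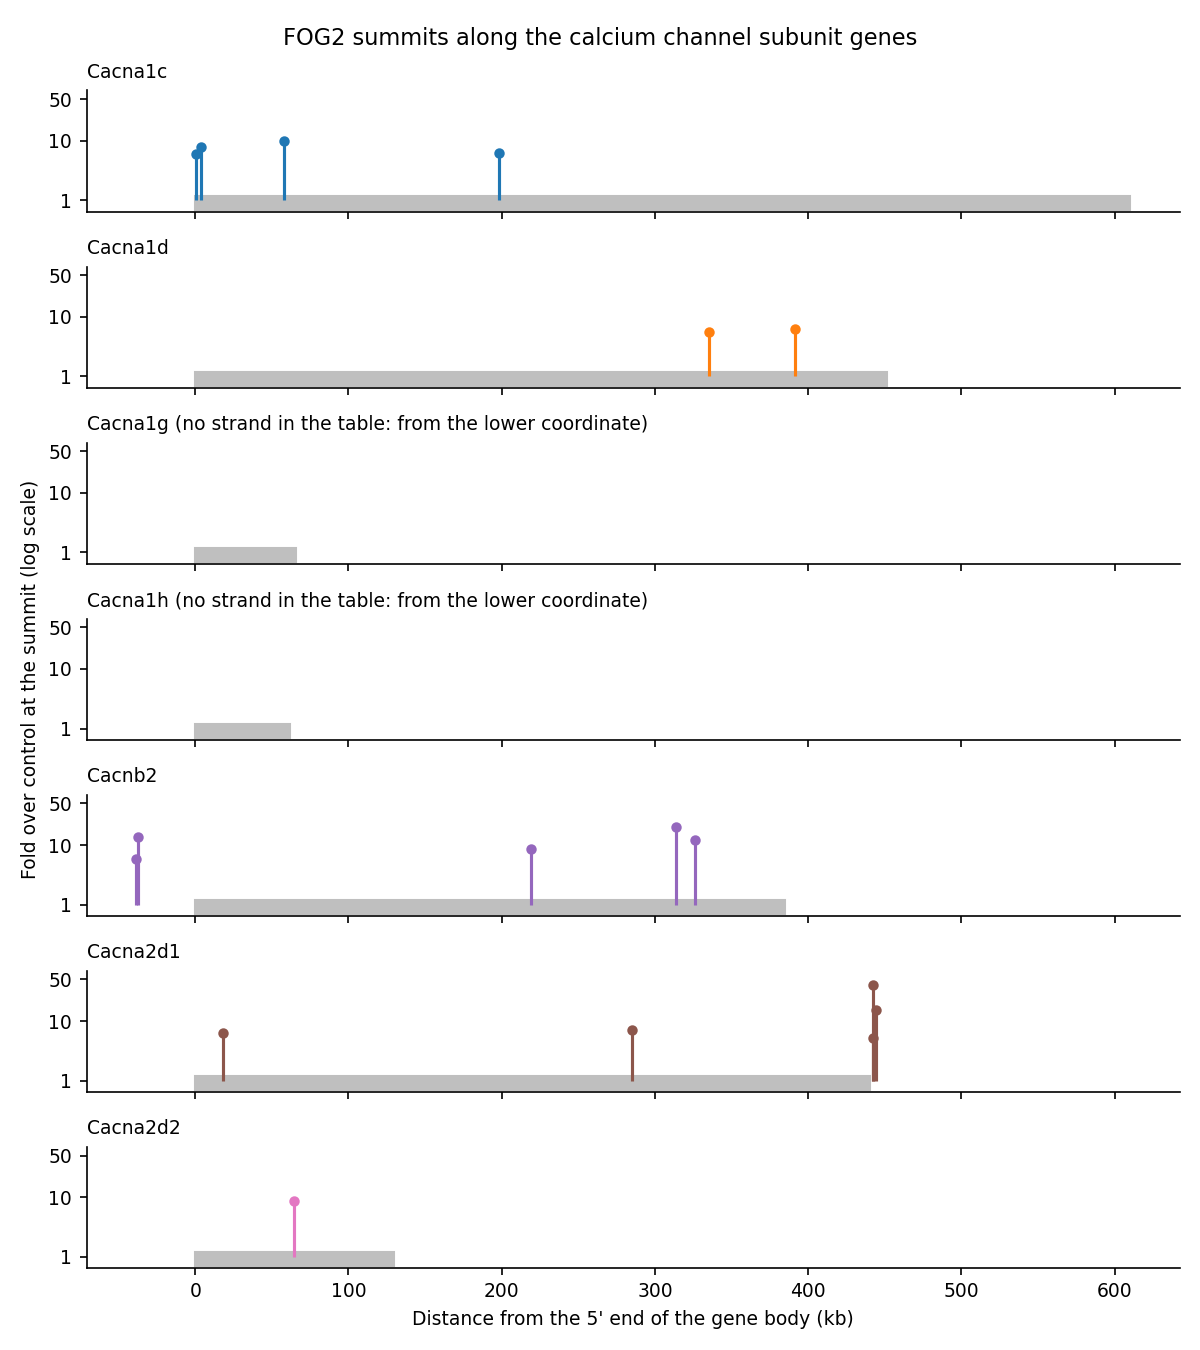
Position of each FOG2 summit along the 7 genes, as distance in kb from the 5′ end of the gene body (grey bar), with the fold over control as height on a log scale. Summits of Cacna1c lie in the 5′ part of the gene, those of Cacna1d in the 3′ part, and 3 summits crowd past the 3′ end of Cacna2d1, while Cacna1g and Cacna1h carry none.

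Long genes were given a summit more often than short ones, so the members were set beside genes of like size. Of the 557 protein-coding genes of at least 300 kb, 71.1% had a summit, 17.1% had 4 or more and 9.87% had 5 or more. Cacna1c, Cacna1d, Cacnb2 and Cacna2d1, the 4 members in that class, all had a summit, and 3 of them had 4 or more. Of the 3482 genes of 50 to 150 kb, 25.8% had a summit, and Cacna2d2 was the 1 of 3 members in that class that did. The share in the shorter class is therefore near the background, and the lack of a summit at Cacna1g and Cacna1h is what most genes of their length show. A second way to allow for size uses the territory of a gene, the stretch of genome for which it is the nearest gene within 100 kb. At the average of 2.52 summits per Mb of territory, the 7 members would hold 6.17 summits, and they held 17, or 2.75 times as many. The ratio was 4.50 for Cacnb2, 3.15 for Cacna2d1, 2.55 for Cacna1c, 2.53 for Cacna2d2 and 1.76 for Cacna1d. For Cacna1g and Cacna1h the territory would hold 0.192 and 0.179 summits at that average, so that 0 cannot be told from the average density or a lower one. No test was made of these ratios, because summits of 1 gene are not independent of each other. The members were also chosen with earlier results of these data known. The ratios and shares are therefore a description and not an unbiased comparison with other genes.

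**Figure D2:**
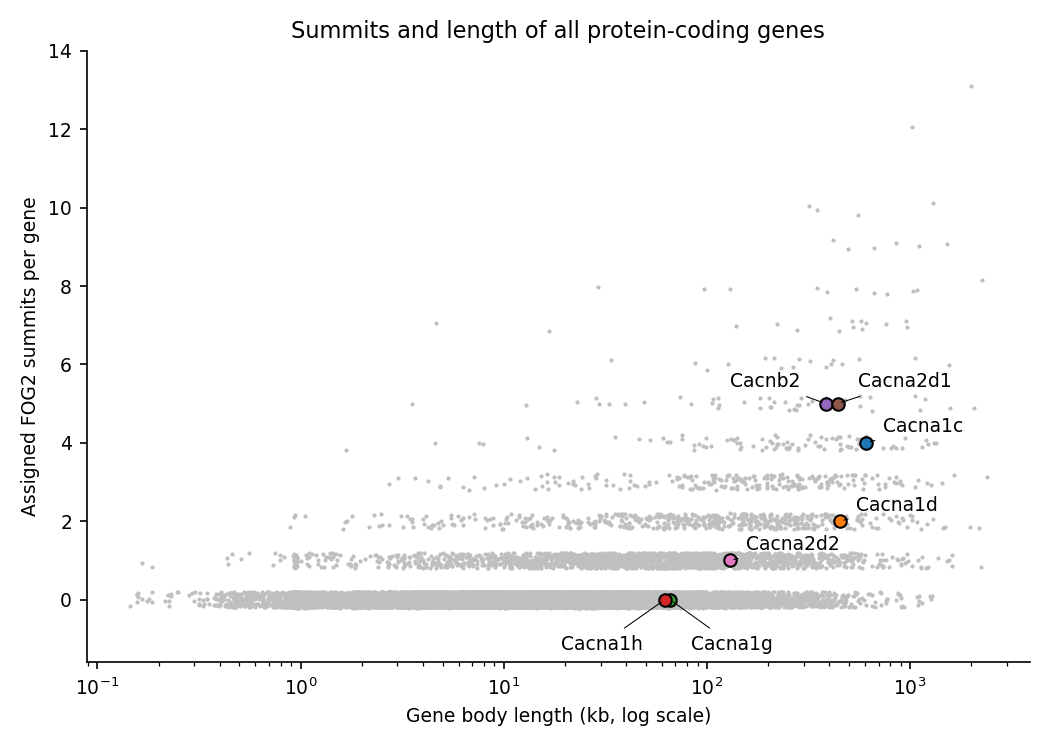
Number of FOG2 summits assigned to each protein-coding gene (grey points, spread vertically by a small random amount) against the length of the gene body in kb on a log scale, with the 7 subunit genes in colour. Cacnb2 and Cacna2d1 with 5 summits and Cacna1c with 4 lie in the upper part of the genes of their length, and Cacna1g and Cacna1h lie at 0 with most genes of theirs.

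Sequence can be shown where an interval or its summit came near an annotated start. Of all 17 intervals, 1 overlapped a promoter window, 250 bases before to 50 bases from a RefSeq transcript start, against 1.99% of all peaks. The promoter table leaves out 1 autosome, whose peaks count as without a window, so that share is a lower limit. The overlapping interval lay at the outermost listed start of Cacna1c. The part of that interval inside the window, before the start, is shown first, as the only listed promoter of the 7 genes that an interval overlaps. It does not reach the summit, which lies 345 bases before the start. It is chr6:119196510-119196659, minus strand, from 250 to 101 bases before the start at 119196409. The second sequence is the 250 bases before the inner start of Cacnb2, chr2:14823842-14824091, plus strand, shown because it is the start nearest to any Cacnb2 summit, 873 bases away. The third lies under a peak inside Cacna2d3, an alpha-2-delta gene outside the 7, described below, at chr14:29017958-29018165, plus strand, from 250 to 43 bases before the start of Lrtm1. All are from RefSeq promoters of GRCm38.p6, the assembly of mm10, read 5′ to 3′ along the gene, with matches to the motifs named below in capitals.
Cacna1c: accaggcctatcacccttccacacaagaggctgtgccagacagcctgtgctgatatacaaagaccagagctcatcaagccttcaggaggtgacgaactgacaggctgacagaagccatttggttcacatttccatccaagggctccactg
Cacnb2: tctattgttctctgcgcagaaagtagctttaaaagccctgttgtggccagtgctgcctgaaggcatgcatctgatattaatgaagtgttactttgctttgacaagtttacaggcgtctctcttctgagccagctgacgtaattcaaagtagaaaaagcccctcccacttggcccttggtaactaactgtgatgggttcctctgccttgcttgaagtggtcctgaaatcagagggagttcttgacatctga
Lrtm1: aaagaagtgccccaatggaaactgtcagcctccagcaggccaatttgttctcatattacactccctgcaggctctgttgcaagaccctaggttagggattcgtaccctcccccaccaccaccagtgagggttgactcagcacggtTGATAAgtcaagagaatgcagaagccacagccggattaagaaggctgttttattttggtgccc

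Both strands were searched for AGATAA and TGATAA, which GATA factors are known to bind, and for AGGTGT, the core of T-box sites. None of these was found in the Cacna1c or the Cacnb2 stretch. In the same stretch of all 32851 promoter windows, AGATAA was present in 6.54%, TGATAA in 5.36% and AGGTGT in 7.66% for the Cacna1c positions, and in 9.99%, 7.94% and 11.8% for the Cacnb2 positions. The Lrtm1 stretch held 1 TGATAA, beginning 105 bases before the start, which 6.90% of windows hold over the same positions. Of the 7 members, 5 had starts in the promoter table, with 9 windows in all, and Cacna1g and Cacna1h had none there. Over the full windows TGATAA was found in 1 of 9, at the outer start of Cacna1d, against 9.05% of all windows. AGGTGT was found in 1 of 9, at the middle start of Cacna1c, against 13.7%, and AGATAA in 0 of 9 against 11.2%. These matches describe the letters in the windows and not where FOG2 or another factor binds, and the sequence under the other 16 peaks was not used here.

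Cacna1c, the main L-type pore gene of working heart muscle (chromosome 6, 118587240 to 119197384, minus strand, 610.1 kb), carried 4 summits, all inside the gene body. The first lay 345 bases upstream of the outermost listed start, in the interval 119196510 to 119196879. It was 5.94-fold over control, with 23 pulldown fragments at the summit (exact 95% Poisson interval 14.6 to 34.5). The fragment numbers here and below were recovered from the deposited fold and p, and their intervals cover counting error only. The second summit lay 2.66 kb inside that start, at 119193645 to 119193868, and was 7.79-fold with 21 fragments (13.0 to 32.1). Both of these summits, 3.01 kb apart, also lie inside the body of Dcp1b, an mRNA decapping factor gene that overlaps the 5′ part of Cacna1c, and the nearest-gene rule cannot choose between them.

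The third summit of Cacna1c, its strongest, lay 57.7 kb from the 5′ end of the gene body and 31.2 kb upstream of the middle start, at 119139568 to 119139887. It was 9.80-fold over control with 24 fragments (15.4 to 35.7). The fourth lay 198.3 kb from the 5′ end, at 118999032 to 118999265, where the lncRNA gene Gm50599 overlaps Cacna1c, and was 6.32-fold with 13 fragments (6.92 to 22.2). The counting intervals of all 4 overlap, and the peaks cannot be ranked by fragments. Their folds are also set by the control, which differed more than the pulldown did. The control level was 3.04 at the outermost start and 1.55 at the strongest summit, against the lowest level in the list of 0.588, while the fragments were 23 and 24. The summits lay in the 5′ part of the gene body, from 0.1% to 32.5% of its length, and none lay in the rest.

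Cacna1d, the L-type pore gene known for its part in the sinoatrial node and atrium (chromosome 14, 30039941 to 30491156, minus strand, 451.2 kb), had 2 summits. They lay 335.2 and 391.7 kb from the 5′ end, at 74.3% and 86.8% of the gene body, in the intervals 30155800 to 30156008 and 30099326 to 30099598. They were 5.67-fold with 8 fragments (3.45 to 15.8) and 6.22-fold with 9 fragments (4.12 to 17.1). Both folds fall below the median of all peaks, 6.39, and both fragment intervals overlap those of Cacna1c. A further summit lay 3.98 kb upstream of the outer start of Cacna1d, at 30495019 to 30495240, and was 6.32-fold with 11 fragments (5.49 to 19.7). It lies in the body of Dcp1a, the paralogue of Dcp1b, and was therefore not assigned to Cacna1d. Cacna1c and Cacna1d each had a FOG2 summit within 4 kb upstream of their outermost listed start, in both cases inside a Dcp1 gene. This likeness was drawn after the values were seen, and the summit before Cacna1d counts for Dcp1a under the rule. How often other genes have a summit so placed was not counted, so no shared pattern is read from these 2 genes. The body of Dcp1b overlaps that of Cacna1c by 22.1 kb and the body of Dcp1a that of Cacna1d by 11.7 kb.

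The T-type pore genes had no assigned summit. For Cacna1g (chromosome 11, 94408391 to 94474400, 66.0 kb) the nearest summit on the chromosome was 599 kb away, inside Itga3. For Cacna1h (chromosome 17, 25374285 to 25436334, 62.0 kb) a summit lay 27.3 kb away inside Tekt4, at 25463600 to 25463769. With a fold of 3.71 and 14 fragments (7.65 to 23.5) it ranked 6117 of 6166 by fold. A peak below the caller's threshold would not be listed, so weaker occupancy at either gene was not detectable here.

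Cacnb2, which encodes the main cardiac beta subunit (chromosome 2, 14603861 to 14988811, plus strand, 385.0 kb), had 3 summits inside the gene and 2 upstream of it. The strongest lay 314.0 kb from the 5′ end, at 14917654 to 14917998. Its fold was 19.8, on 43 fragments (31.1 to 57.9), and it ranked 185 among all peaks. Another lay 12.3 kb further 3′, at 14929873 to 14930267, and was 12.0-fold with 26 fragments (17.0 to 38.1). The remaining summit inside the gene, 8.53-fold with 19 fragments (11.4 to 29.7), lay at 14823133 to 14823348, just before the inner start whose upstream sequence is printed above.

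The upstream pair of Cacnb2 lay 38.5 and 37.3 kb before the gene body, 1.15 kb apart, inside the lncRNA gene Gm13266. The outer summit, at 14565328 to 14565672, was 5.86-fold with 12 fragments (6.20 to 21.0), and the inner, at 14566464 to 14566708, was 13.4-fold with 22 fragments (13.8 to 33.3). Of the 5 Cacnb2 peaks, 3 were above 10-fold, a level that 16.9% of all peaks reached. A stronger peak, 21.3-fold with 60 fragments (45.8 to 77.2), lay at 14496093 to 14496684, 107.5 kb before Cacnb2 and 1.41 kb from the zinc transporter gene Slc39a12. It fell outside the 100 kb limit and was nearer to that gene, so it was not counted. The Cacnb2 summit farthest from the gene that was counted is the outer one of the pair at 38.5 kb. The other summit just past the limit lay 107.6 kb from Cacna2d2, near Gnai2, at 5.80-fold.

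Cacna2d1, which encodes the alpha-2-delta subunit of the cardiac L-type channel (chromosome 5, 15934264 to 16374511, plus strand, 440.2 kb), had the strongest peak of the 7 genes. That peak spanned 16376457 to 16377068, 612 bp against a median of 251 bp for all peaks. It was 40.6-fold over control with 69 fragments (53.7 to 87.3) on a control level of 0.724, and ranked 19 of 6166. Its summit lay 2.39 kb past the 3′ end of the gene body, and no gene of any kind in the table overlaps it. The nearest listed transcript start is that of Hgf, a growth factor gene, 176.6 kb away. Apart from the strongest Cacnb2 peak, whose interval of 31.1 to 57.9 fragments overlaps its own, the fragment interval of this peak lies above those of all other 15 member peaks.

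Flanking summits stood on either side of it. One, 0.60 kb nearer to the gene at 16376230 to 16376400, was 5.15-fold with 10 fragments (4.80 to 18.4), the lowest fold among the 17. The other, 1.33 kb further out at 16378087 to 16378359, was 15.1-fold with 23 fragments (14.6 to 34.5). The 3 summits fell within 1931 bp. In the whole list, 16 separate stretches of that length held 3 summits, a count made after this group was seen. Chromatin was sonicated to 300 to 800 bp per the labels' protocols, and whether neighbouring summits share fragments was not tested. The remaining summits of Cacna2d1 were inside the gene. One lay 18.2 kb from the 5′ end, at 6.30-fold with 9 fragments (4.12 to 17.1), and the other 285.3 kb from it, at 7.15-fold with 12 fragments (6.20 to 21.0).

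Cacna2d2, the other alpha-2-delta gene among the 7 (chromosome 9, 107399733 to 107529346, plus strand, 129.6 kb), had a single summit in the middle of the gene, at 49.9% of its length, in the interval 107464294 to 107464597. It was 8.64-fold over control with 13 fragments (6.92 to 22.2). Its interval overlaps those of 14 of the other 16 member peaks and lies below the strongest peaks of Cacna2d1 and Cacnb2.

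**Figure D3:**
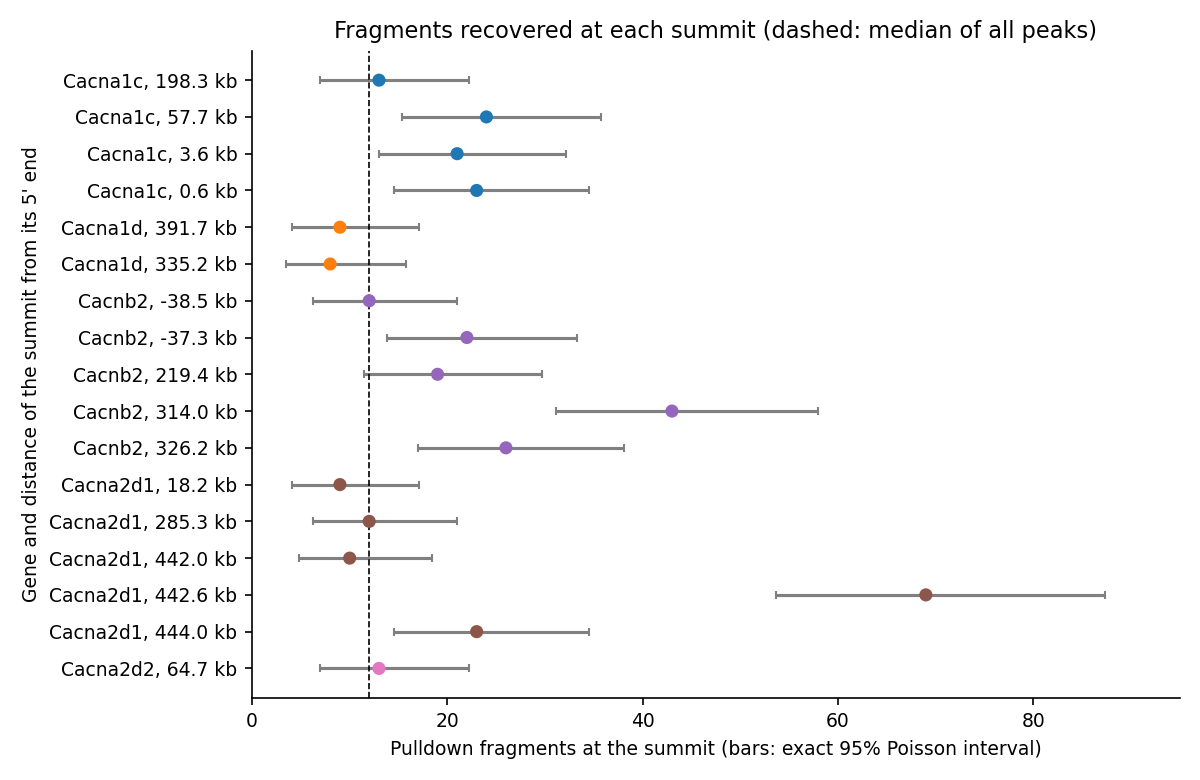
Pulldown fragments recovered at the summit of each of the 17 peaks (points) with exact 95% Poisson intervals (bars), labelled by gene and distance from its 5′ end, and the median of all peaks, 12, as a dashed line. Only the strongest peaks of Cacna2d1, with 69 fragments, and Cacnb2, with 43, stand clear of most of the others.

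Among all FOG2 peaks the 17 were spread over most of the range of fold. Their median was 7.79-fold, with a lowest value of 5.15 and a highest of 40.6, beside a median of 6.39 for the whole list, and 7 of the 17 lay below that median. Of the 17, 5 (29.4%) reached 10-fold, against 16.9% of all peaks, and these 5 came from Cacnb2 and Cacna2d1 alone. Summits inside a protein-coding gene body numbered 12 of 17 (70.6%), against 45.9% of all. These shares are not alike, because all peaks include those far from any gene, which the rule leaves out. Most of each member's territory is also its gene body, such as 440.2 of 630 kb for Cacna2d1 and 610.1 of 622 kb for Cacna1c. No excess inside genes is therefore read from them. Another summit lay within 10 kb for 7 of the 17 (41.2%), against 18.6% of all, namely the pair in Cacna1c, the pair before Cacnb2 and the 3 past Cacna2d1. The members' fragments ranged from 8 to 69 with a median of 19, and control levels ranged from 0.588 to 3.04. These shares describe few peaks in few genes and were not tested.

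**Figure D4:**
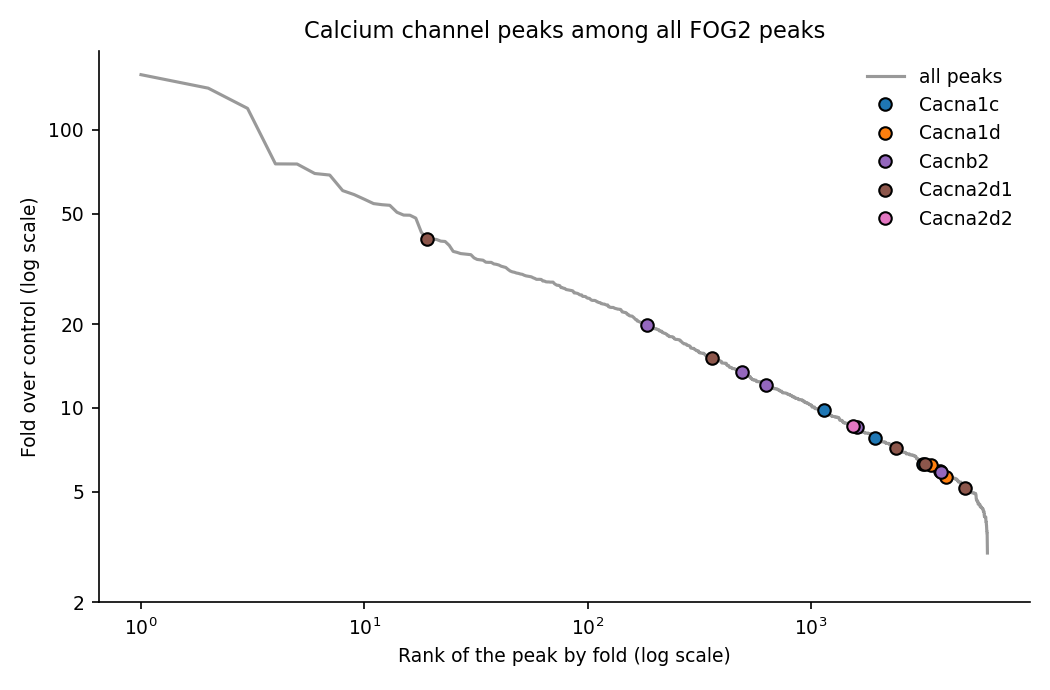
Fold over control of all 6166 FOG2 peaks (grey line) in order of rank, with the 17 calcium channel peaks as coloured points, both axes on a log scale. The Cacna2d1 peak at rank 19 and the Cacnb2 peak at rank 185 lie far ahead of the Cacna1c, Cacna1d and Cacna2d2 peaks, all below 10-fold.

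The other genes of the channel family and of L-type channel regulation had few summits. Of 33 such genes 6 (18.2%) had one, near the 13.6% of all genes. The 33 held 7 summits where their territories would hold 12.4 at the average density. By gene the ratio was 0 for the 27 without a summit and 0.39 for Cacna2d3. For Cacna1a it was 2.29, for Bin1 3.2 and for Ahnak 4.13, all within the range of the members with a summit. The ratio was 8.1 for Cacng7 and 9.68 for Cacng6, above every member, but on 1 summit each in territories of 49 and 41 kb. Among 6 further pore genes only Cacna1a, the P/Q-type pore best known from neurons, had any, with 2 inside the gene at 6.93- and 8.82-fold (10 and 13 fragments). Cacna1e, named after its values were seen, has a territory of 683 kb, close to the 622 kb of Cacna1c, and had 0. None of Cacnb1, Cacnb3 and Cacnb4 had a summit, so Cacnb2 was the only beta subunit gene in the list. Of the gamma subunit genes, 2 of 8 had 1 summit each, Cacng6 at 9.45-fold and Cacng7 at 4.96-fold, both outside the gene. The difference between these genes and the 7 members was not tested.

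Of the remaining alpha-2-delta genes Cacna2d3 had 1 summit and Cacna2d4 had 0. The Cacna2d3 summit, 5.66-fold with 15 fragments (8.40 to 24.7), lay 704.7 kb from the 5′ end of a gene whose territory of 1018 kb would hold 2.57 summits. It was 163 bases upstream of the start of Lrtm1, whose sequence is printed above, so its nearest start is not one of Cacna2d3. Of 14 regulators of the L-type channel, 2 had a summit. They were Ahnak, a large scaffold protein that binds the beta subunit, at 7.05-fold with 17 fragments (9.90 to 27.2), and Bin1, which shapes the membrane tubules that carry L-type channels, at 5.55-fold with 8 (3.45 to 15.8). The RGK proteins encoded by Rrad, Gem, Rem1 and Rem2, which inhibit the channel, had none.

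Prkce and Pcdh7 were among the 3 genes whose pattern was most like that of Cacna2d1. Likeness was measured over 2928 genes with a summit as the distance in log2 summit number plus 1, log2 strongest fold and log2 gene length in the 1 pooled list. Prkce (490.1 kb) had 4 summits with a strongest fold of 30.2, at a distance of 0.524. Pcdh7 (417.1 kb) had 9 summits with a strongest fold of 32.0, at a distance of 0.817.

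A site can act on a gene other than the nearest, and expression was not measured here. The 5 genes with a summit had at least 1 in every alternative that counted summits per gene. By nearest gene end, though, the 1 summit of Cacna1d was the 6.32-fold one inside Dcp1a, and neither of its own was kept. Where the summits of Cacna2d1 count only inside the gene body, its strongest fold was 7.15 in place of 40.6.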

How the data were processed

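FOG2 occupancy was measured in 2 libraries, by biotin pulldown and sequencing per the labels' protocols although the antibody field reads FOG2, with 1 input library, grouped by their titles. The data were 1 peak list, which the authors called on the pooled pulldown and filtered against blacklisted regions, per the file's name and peak names. The submitters' processing notes name Bowtie2 2.3.2, SAMtools 1.5, Picard, MACS2 2.1.1 and the build mm10. Aligner and caller settings: not given in the sources used here. As deposited, the fold is a linear ratio, pulldown over control, taken at each summit, and was read as having 1 added to both. The −log10 values of p and q were deposited for that same summit, and the display score as deposited was left aside. Library totals are not held by the list, so depth is known only as fragments at summits.

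Whole fragments and control levels were solved from (fragments + 1)/(control + 1) = fold and a Poisson upper tail (largest misfit in −log10 p 0.000148; 83 of 6166 peaks had a second solution within 0.001, none of the 17 among them). Recovery was tested on values simulated with that same formula, and assignment on simulated positions. The recovery test checks the arithmetic only, and not whether the deposited values were made that way. Gene bodies came from RefSeq GRCm38.p6, without chromosome Y, and strands and starts from its promoter table, which holds none on chromosome 18. The gene table gives no exons, introns or UTRs. Territories were measured on a 1 kb grid. All 7 members and all 33 further genes were matched. The members and lists were chosen with earlier results of these data known. Named were all 7 members, every further gene with a summit, genes holding a peak within 100 kb of a member, and the 3 genes most like the member with most summits. Other genes named beside a peak, such as Lrtm1, were chosen after their values were seen, and some genes under the rule are not reported here. Pandas 2.3.3, scipy 1.17.1 and matplotlib 3.10.9 were used. Alternatives were peak thresholds (−log10 q or fold of at least 5), windows of 10 and 20 kb or the gene body alone, genes of any biotype, gene ends, interval overlap, merging within 500 bp, and fragments as the strength.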

Additional observations from a re-analysis of the deposited data

How the results depend on the processing

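Over the alternatives run, 5 or 6 of the 7 members had a summit, the summits given to them ranged from 12 to 19 against 17, and the median fold of their peaks from 7.15 to 8.53 against 7.79. The further genes with a summit numbered from 4 to 16 against 6, with 16 reached when every gene within 100 kb of a summit was counted rather than the nearest, an alternative chosen after seeing the data. It counts more genes per summit by construction, and it also gave Cacna1h its only summit. Leaving out the summits shared with Dcp1b, also chosen after seeing the data, left Cacna1c with 2. Cacna1c also had 2 by nearest gene end, where Cacna1d had 1, the summit inside Dcp1a. At a −log10 q of at least 5 Cacna1d had 1 of its own summits. Cacnb2 had 3 within 10 or 20 kb, inside the gene body, or when genes of any biotype could take a summit, which gives the upstream pair to Gm13266. Cacna2d1 had 2 inside the gene body. No paired analysis was possible because the list pools the replicates, and for the same reason no replicate could be left out. With a median of 12 fragments per summit over all peaks, folds near the median cannot be ordered.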
